A study of Mus musculus with 93 samples.

Results

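Gap43, Basp1, Marcks, Marcksl1, Stmn1, Stmn2, Stmn3 and Stmn4 are 8 genes of the growing axon. They were taken by gene name from a gene table of 32747 symbols, each matched 1 entry, and they are followed here across the stages of olfactory neurogenesis and cell by cell against Omp. The study asked how sensory neurons of the mouse nose come to express odorant receptor genes, and measured RNA in single cells picked by hand from dissociated olfactory epithelium of C57BL/6 mice. The labels name 11 Progenitor and 9 Precursor cells, 27 Early and 13 Late Immature Neurons and 25 Mature Neurons, 85 cells in all, and 8 of the cells have a repeat library that was kept aside. All groups share the strain and carry no treatment or allele in the labels, which give no age, sex or animal and do not say how a cell was given its stage. Cells may share an animal, and each stage therefore counts as 1 sample, with no test, standard error or p-value between stages. An SD is the spread between cells, and intervals for shares of cells are exact 95% Clopper-Pearson intervals that cover counting error only. If the stages were set from these same transcriptomes, differences between stages describe the groups and are not independent of the grouping.

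The growth cone is the motile tip of an extending axon. The proteins of Gap43, Basp1, Marcks and Marcksl1 sit on the inner face of its membrane through lipid anchors, bind calmodulin or acidic phospholipids, are phosphorylated by protein kinase C and act on the actin beneath the membrane. Stathmins bind tubulin dimers and favour microtubule disassembly, and lose this activity when phosphorylated. In the olfactory epithelium, which makes neurons throughout life, Gap43 is the customary marker of immature sensory neurons, and Omp, the olfactory marker protein gene, that of mature ones.

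The starts of the coding sequences are printed because they hold the anchors by which these genes differ. Each line gives the first 75 bases (25 codons) of the longest coding sequence among the GENCODE vM21 transcripts that the deposited annotation also holds, read 5′ to 3′ on the coding strand. Capitals mark a glycine codon right after the start codon, which encodes the myristoylated residue of the Basp1 and MARCKS proteins, and every cysteine codon in frame, which encodes the palmitoylated residues of Gap43 and of the neuronal stathmins.
Gap43: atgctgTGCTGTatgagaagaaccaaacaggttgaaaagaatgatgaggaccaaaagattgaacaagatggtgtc
Basp1: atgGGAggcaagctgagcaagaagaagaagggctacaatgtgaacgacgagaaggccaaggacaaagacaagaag
Marcks: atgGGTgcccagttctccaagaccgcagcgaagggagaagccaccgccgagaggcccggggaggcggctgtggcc
Marcksl1: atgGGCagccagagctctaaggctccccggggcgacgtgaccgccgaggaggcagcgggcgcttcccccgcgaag
Stmn1: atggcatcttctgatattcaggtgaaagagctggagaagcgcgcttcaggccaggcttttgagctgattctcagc
Stmn2: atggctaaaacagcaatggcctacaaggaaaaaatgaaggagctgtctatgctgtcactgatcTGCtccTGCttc
Stmn3: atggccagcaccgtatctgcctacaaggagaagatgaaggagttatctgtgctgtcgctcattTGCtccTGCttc
Stmn4: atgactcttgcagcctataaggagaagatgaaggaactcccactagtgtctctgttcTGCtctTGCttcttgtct

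Gap43 has 2 cysteine codons directly after its opening codons, Basp1, Marcks and Marcksl1 have the glycine codon and no cysteine codon in this stretch, and Stmn2, Stmn3 and Stmn4 have 2 cysteine codons late in it. Stmn1, the stathmin that stays in the cytosol, has neither. Over the aligned bases of the whole coding sequences, Stmn2 and Stmn3 were 73.6% identical, Stmn1 and Stmn2 73.0%, and Marcks and Marcksl1 61.2%. Marcks and Marcksl1 also share the basic effector domain, whose serines are the sites of protein kinase C. It was found as the window of 25 codons with most identical encoded residues past the start (19 of 25), at codons 146 to 170 of Marcks and 87 to 111 of Marcksl1, and is printed with serine codons in capitals.
Marcks: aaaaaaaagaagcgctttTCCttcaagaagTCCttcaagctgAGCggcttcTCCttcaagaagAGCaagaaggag
Marcksl1: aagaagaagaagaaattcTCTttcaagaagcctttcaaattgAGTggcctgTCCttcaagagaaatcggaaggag

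On the mm10 build, the protein-coding genes lie at chr16:42248442-42340651 (Gap43, minus strand), chr15:25363285-25413764 (Basp1, minus), chr10:37133375-37138920 (Marcks, minus), chr4:129513581-129515985 (Marcksl1, plus), chr4:134468320-134473843 (Stmn1, plus), chr3:8509527-8561604 (Stmn2, plus), chr2:181306459-181314500 (Stmn3, minus) and chr14:66344304-66361680 (Stmn4, plus). Of all 50-base words of the transcripts, 36.5% of those of Stmn1 also occur in transcripts of Gm11223 or Gm23634, so the Stmn1 level is uncertain by what the counting assigned to these copies. Gm23634, which shares exon bases with Stmn1, was at 0 in all 85 cells, and Gm11223 was not analysed here. The share was 1.61% for Marcksl1 and 0.175% for Marcks, and 0 for Gap43, Basp1, Stmn2, Stmn3 and Stmn4.

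The values are FPKM, fragments scaled by transcript length and by the mapped fragments of the library. Levels set side by side between genes rest on even coverage of the transcripts, which was not analysed here. The depth recovered from the steps between low values lay between 0.528 and 9.41 fragments per FPKM and kilobase, with stage medians of 5.88, 6.70, 5.49, 4.91 and 4.06 from Progenitor to Mature Neuron. The stage labels went with their markers: the summed FPKM of 9 mature neuron markers had medians of 4.37, 28.7, 396, 11880 and 12476 in that order, and that of 5 progenitor markers 327, 88.5, 0.638, 0.138 and 0.0460. Markers of other cells moved with the stages too. The summed FPKM of 6 sustentacular cell markers had a median of 284 in Mature Neuron cells, where 15 of 25 cells reached 100, and of 162 in Progenitor cells. These sums rest on different genes. Of 5 measured, Cbr2 and Cyp2g1 were higher in Mature Neurons and Krt8 and Krt18 lower, against 25.2% and 46.3% of all genes. Median FPKM in Mature Neuron and Progenitor cells was 210 and 25.5 for Cbr2, and 0 and 62.9 for Krt8. The summed FPKM of 7 blood and immune markers reached 100 in 8 of 11 Progenitor cells. Of 5 glia and ensheathing markers, Sox10 was at 0 in every stage. Their summed FPKM reached 100 in 2 Progenitor, 1 Precursor, 1 Early Immature, 2 Late Immature and 4 Mature Neuron cells. The highest sum was 5860, in the Progenitor cell D189. 1 Early Immature Neuron library, D357, stood apart, with 4608300 FPKM over genes outside the mitochondrial genome and the receptor genes against a stage median of 444548. Some results are given below without D357, without cells high in the immune genes S100a8 or S100a9, or without those high in Cbr2 or Cyp2g1. Beyond these subsets, the part of such libraries in the results was not tested.

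The cell numbers fall into 4 runs whose meaning the labels do not give. The first runs over D29 to D97 and the next over D168 to D205. After them come D213 to D274 and, last, D316 to D434. They are unevenly spread over stages: 21 of 25 Mature Neuron cells carry numbers of D29 to D97 or D213 to D274, and 25 of 27 Early Immature Neuron cells do not. The 8 Progenitor cells with summed blood and immune markers of 100 FPKM or more were the 8 named D168 to D205. Gap43 moved with these runs. It was at 0 in 27 of the 29 cells named D29 to D97 or D213 to D274, with a highest value of 0.671 FPKM, and above 0 in all 37 cells named D316 to D434.

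Gap43, the growth-associated protein gene, was low in Progenitor cells, peaked in Early Immature Neurons and was at or near 0 in Mature Neurons. The lowest, median and highest FPKM were 0, 0.186 and 5.48 in Progenitor cells and 0, 38.8 and 706 in Precursor cells. They were 0, 360 and 2155 in Early Immature Neurons, 0, 1.19 and 198.8 in Late Immature Neurons, and 0, 0 and 0.893 in Mature Neurons. An FPKM of at least 100 was reached by 20 of 27 Early Immature Neurons (74.1%, interval 53.7 to 88.9%), by 1 of 13 Late Immature Neurons (D199) and by 0 of 25 Mature Neurons (interval 0 to 13.7%). In Mature Neuron libraries 3 fragments of Gap43 come to a median of 0.520 FPKM, so the values of the 5 cells above 0 there rest on few fragments.

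On the log2(FPKM + 1) scale, which understates differences of low genes, Gap43 averaged 1.64 ± 2.09 in Late Immature and 7.54 ± 3.17 in Early Immature Neurons (SD over cells, n = 13 and 27), a difference of -5.90. No other gene of the 4138 measured in this pair had a lower one. For Mature against Early Immature Neurons the Gap43 difference was -7.39. There 25 of 27 Early Immature and 0 of 25 Mature Neurons reached 1 FPKM. Gap43 thus counted as measured only through the stage where it is high, and its rank is not given. Both differences exceed the pooled SD between cells, 2.87 and 2.29. Within cells D316 to D434 they were -6.53 and -7.46. Within D213 to D274 they were 0.16 and 0.05, and there the Early Immature Neurons D215 and D244 were also at 0, as was the Precursor D242. Other members were present in these 3 cells, though Basp1 was 0.756 and Stmn4 0 in D215. Stmn1 was 879, 670 and 1489 FPKM in D215, D244 and D242, and Marcks 95.4, 75.8 and 84.7. What differed between the ranges was not tested.

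Gap43 was already present in Precursor cells, at 4.51 ± 3.24 against 0.756 ± 1.02 in Progenitor cells (n = 9 and 11), a difference of 3.76. This size depends on the cells used. It was 1.197 within D316 to D434 (n = 5 and 3). Without the cells at an FPKM of at least 100 in S100a8 or S100a9 it was 1.99 (n = 8 and 3). Both subsets hold the same 3 Progenitor cells, D330, D337 and D393. The 3 Precursor cells of D168 to D205 had 125, 139 and 706 FPKM of Gap43, and the 5 of D316 to D434 had 1.10 to 51.6.

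**Figure D1:**
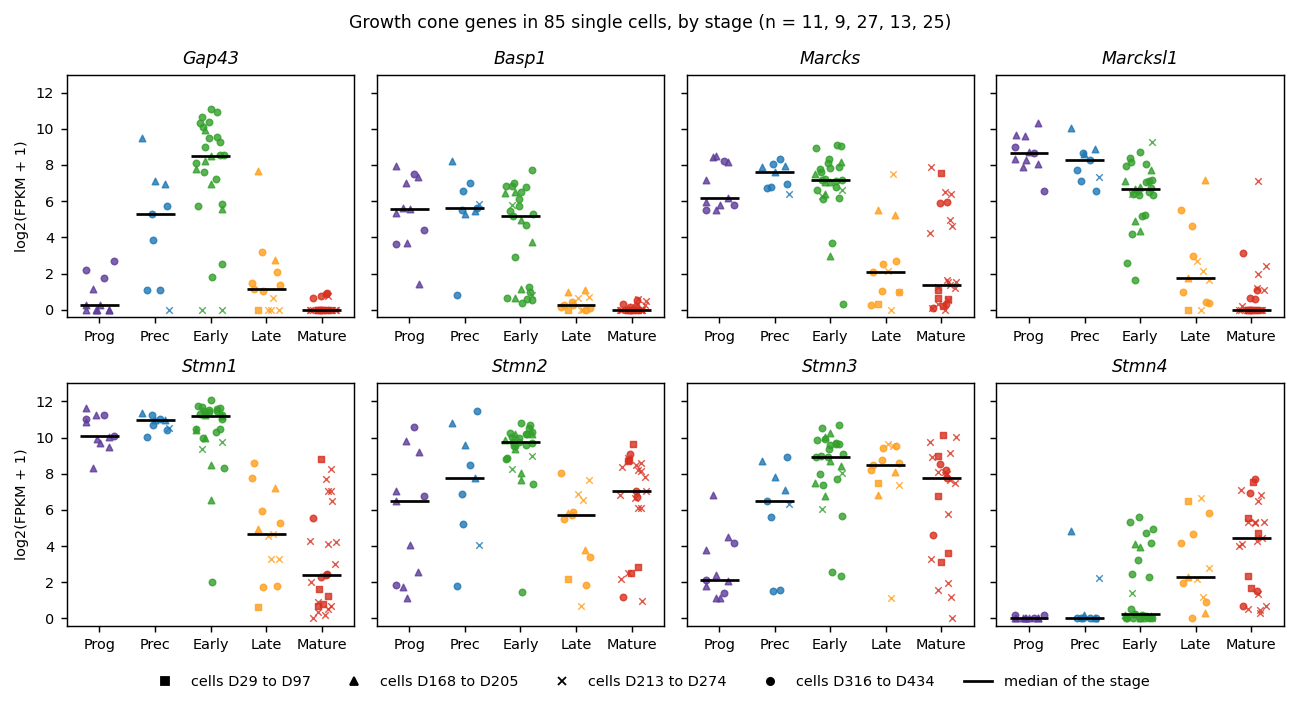
Level of each gene in each of the 85 cells, as log2(FPKM + 1), by stage in developmental order; black bars are medians and symbols give the range of cell numbers. Gap43, Basp1, Marcks, Marcksl1 and Stmn1 drop between Early and Late Immature Neurons. Stmn3 stays high over that step, and Stmn4 climbs. The Early Immature crosses of the Gap43 panel lie at 0.

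Basp1, a myristoylated membrane protein gene related in function to Gap43, was not confined to immature neurons. Its lowest, median and highest FPKM were 1.69, 46.0 and 247 in Progenitor, 0.753, 47.8 and 299 in Precursor, and 0.276, 34.95 and 212 in Early Immature Neuron cells. In Late Immature Neurons they were 0, 0.190 and 1.10, and in Mature Neurons 0, 0 and 0.4934. In the first libraries the 5 stage levels thus fall into 2 sets, a high one up to Early Immature Neurons and one near 0 after them. In these libraries the difference of Mature Neurons minus Progenitor cells was -5.29. The repeat of the Late Immature Neuron D250 had 72.7 FPKM of Basp1, against 0 in its first library. Repeats of D230, D233, D243 and D251 had 0.927 to 2.48. Early Immature Neurons were mixed: 17 of 27 reached 10 FPKM, and the 10 others spanned 0.276 to 6.60. Their mean lay 1.47 below that of Precursor cells (4.13 ± 2.61 against 5.60 ± 2.03, n = 27 and 9), less than the spread between cells.

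Marcks, which encodes the founding member of its family, was present in every Progenitor and Precursor cell. The lowest, median and highest FPKM were 43.9, 72.0 and 366 in Progenitor, 84.7, 191.9 and 318.9 in Precursor and 0.231, 144 and 544 in Early Immature Neuron cells. The means of these 3 stages differed by at most 0.57, under 1 SD. Late Immature Neurons had 0, 3.22 and 183, and Mature Neurons 0, 1.53 and 240. From Early to Late Immature Neurons the mean was 4.44 lower (2.41 ± 2.32 against 6.85 ± 1.90), and Mature Neurons had 2.65 ± 2.70, a difference of 0.24 from Late Immature Neurons. This last difference depends on the cells used: it was 2.14 without the cells at 100 FPKM or more in the sustentacular genes Cbr2 or Cyp2g1 (n = 10 and 9) and 1.46 within D316 to D434 (n = 4 and 6). Unlike Gap43 and Basp1, Marcks remained at or above 10 FPKM in 9 of 25 Mature Neurons.

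Marcksl1, the smaller MARCKS-like gene, was highest at the outset. The lowest, median and highest FPKM were 93.2, 397 and 1257 in Progenitor, 94.0, 314 and 1063 in Precursor and 2.15, 100 and 618 in Early Immature Neuron cells. They were 0, 2.32 and 140 in Late Immature Neurons, and 0, 0 and 136 in Mature Neurons, where 15 of 25 cells were at 0 and only D254 passed 10. Of the 8 members, Marcksl1 had the lowest difference of Mature Neurons minus Progenitor cells, at -7.86 (0.776 ± 1.57 against 8.64 ± 1.02, n = 25 and 11). Early Immature Neurons differed from Precursor cells by -1.71 in Marcksl1, past its SD of 1.63, and by -0.55 in Marcks, within its SD of 1.69.

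Stmn1, the ubiquitous stathmin of dividing and migrating cells, had the highest median FPKM of the 8 genes up to the Early Immature Neurons. Its lowest, median and highest FPKM were 314, 1091 and 3169 in Progenitor, 1043, 2037 and 2607 in Precursor and 3.02, 2306 and 4398 in Early Immature Neuron cells, where the lowest value is that of D357 and the next is 94.3 in D192. Late Immature Neurons had 0.521, 24.0 and 382, and Mature Neurons 0, 4.28 and 444. The Precursor cells were the most even, with an SD of 0.43 on the log2 scale. The means of the 3 early stages differed by at most 0.50. Against Early Immature Neurons, the mean differed by -5.72 in Late Immature Neurons (4.59 ± 2.42 against 10.3 ± 2.08) and by -6.997 in Mature Neurons (3.31 ± 2.84).

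Stmn2, the neuronal stathmin also called SCG10, varied widely among Progenitor and Precursor cells and was still detected in Mature Neurons. The lowest, median and highest FPKM were 1.16, 89.5 and 1552 in Progenitor, 2.49, 212.9 and 2849 in Precursor and 1.78, 848 and 1765 in Early Immature Neuron cells. Late Immature Neurons had 0.629, 51.6 and 264.7, and Mature Neurons 0.967, 133 and 787. The SD between Progenitor cells was 3.47 log2 units, and values of 1.16 and 1552 FPKM occurred in 2 cells of that stage, D174 and D337. Stmn2 had its lowest median in Late Immature Neurons: the mean there was 4.34 below Early Immature Neurons (4.92 ± 2.33 against 9.25 ± 1.79), and that of Mature Neurons was 1.497 above it (6.41 ± 2.71), less than the SD between cells. The order of the last 2 medians was the same within D316 to D434, with 118 in Mature and 48.3 in Late Immature Neurons, and within D213 to D274, with 127 and 104.

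Stmn3, the neuronal stathmin also called SCLIP, had its lowest median in Progenitor cells, was higher from Precursor cells on and peaked in Early Immature Neurons. The lowest, median and highest FPKM were 1.16, 3.44 and 114 in Progenitor, 1.89, 90.3 and 481 in Precursor and 3.997, 478 and 1639 in Early Immature Neuron cells. Late Immature Neurons had 1.17, 357.2 and 787, and Mature Neurons 0, 219 and 1137. The mean of Late Immature Neurons differed from that of Early Immature Neurons by -0.37, within the SD of 2.17. The difference was 0.49 within D316 to D434 and -1.10 without the cells high in Cbr2 or Cyp2g1, where that of Mature minus Early Immature Neurons was -3.63, against -1.88 with all cells. In Late Immature Neurons 12 of 13 cells had at least 100 FPKM (92.3%, interval 64.0 to 99.8%), and the 13th, D250, had 1.17. Mature Neurons were more spread: 16 of 25 reached 100, and 6 were under 10.

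Stmn4, the neuronal stathmin also called RB3, was the only member whose median was highest in Mature Neurons. It was listed at 0 in 9 of 11 Progenitor cells, 6 of 9 Precursor cells and 9 of 27 Early Immature Neurons, with highest values of 0.151, 27.6 and 48.0 FPKM. Late Immature Neurons had a lowest, median and highest FPKM of 0, 3.92 and 99.8, and Mature Neurons of 0.209, 21.1 and 210. The mean was 2.39 higher in Mature than in Early Immature Neurons (4.02 ± 2.51 against 1.63 ± 2.05), close to 1 SD, and the groups overlap. An FPKM of at least 10 was reached by 16 of 25 Mature Neurons (64.0%, interval 42.5 to 82.0%) and by 7 of 27 Early Immature Neurons (25.9%, interval 11.1 to 46.3%).

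The counts of members past 1 log2 unit in each pair of stages are read against the same share of all genes measured in the pair, that is, at 1 FPKM or more in 50% or more of cells in one or both stages. Between Precursor and Progenitor cells 3 of the 8 were higher (Gap43, Stmn2 and Stmn3) and 0 lower, against 20.1% and 21.6% of 4317 genes, and Stmn4 did not pass the filter. Only the Stmn2 difference of 1.78 was within the spread between cells. It was 0.39 within D316 to D434 and 0.91 without the cells high in S100a8 or S100a9, subsets with the same Progenitor cells. Between Early Immature Neuron and Precursor cells 3 were higher (Gap43, Stmn2 and Stmn3) and 2 lower (Basp1 and Marcksl1), against 22% and 28.1% of 4002 genes, and Stmn4 again did not pass. Within D316 to D434 Basp1 was at -0.81. The median difference of the 8 was 0.67 in the first of these pairs and 0.16 in the second, and that of all genes -0.03 and -0.26.

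The break came between Early and Late Immature Neurons. There 6 of the 8 were lower and only Stmn4 was higher, against 16.1% lower and 32.6% higher among 4138 genes, and the median difference was -4.22 for the members and 0.41 for all genes. The 6 lower members lay between -3.78 (Basp1) and -5.90 (Gap43), each more than its SD between cells, and the same 6 were lower by more than 1 within D316 to D434. Between Mature and Late Immature Neurons 4 were lower (Gap43, Marcksl1, Stmn1 and Stmn3) and Stmn2 was higher, against 32.7% and 4.57% of 3831 genes. Every member but Gap43 differed here by less than its spread between cells. Basp1, at -0.23, did not pass the filter. In this pair the Gap43 difference of -1.49 was -0.99 without the Late Immature Neuron D199 and -0.93 within D316 to D434, where that of Stmn2 was 0.95, and the Stmn1 difference of -1.28 was -0.95 without D344 and 0.16 without the cells at 100 FPKM or more in the sustentacular genes Cbr2 or Cyp2g1.

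Set end against end, Mature Neurons were lower than Progenitor cells in 4 members (Basp1, Marcks, Marcksl1 and Stmn1, at -4.19 to -7.86) and higher in Stmn3 and Stmn4 (by 3.57 and 3.99), against 46.3% lower and 25.2% higher among 4463 genes. Both counts lie near these shares of all genes. Gap43 did not pass the filter there, at -0.60. Its difference was -2.06 without the cells high in S100a8 or S100a9 and -1.43 within D316 to D434. Both subsets hold the same 3 Progenitor cells, and the share of all genes lower in them was not analysed here. Against Early Immature Neurons, 7 of the 8 were lower in Mature Neurons and only Stmn4 was higher, against 30.6% and 20.5% of 3518 genes. These pairs share their Mature or Early Immature cells with the others and are not independent of them.

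Cell by cell over all stages, 6 of the 8 genes had a negative coefficient with Omp. The share of all genes with a negative coefficient was not analysed here. Over 85 cells, Spearman's coefficient with Omp was -0.79 for Marcksl1, -0.77 for Stmn1, -0.76 for Basp1, -0.71 for Marcks, -0.47 for Gap43 and -0.30 for Stmn2, and 0.21 for Stmn3 and 0.65 for Stmn4. The points share stage, depth and the range of cell numbers, so these are descriptions without a p. Progenitor and Precursor cells, mostly without Omp, set part of this order. Over the 65 cells of the 3 neuron stages the coefficient was -0.73 for Stmn1 and for Gap43, -0.70 for Marcks and for Marcksl1, -0.68 for Basp1, -0.58 for Stmn2, -0.14 for Stmn3 and 0.43 for Stmn4. Within the 27 Early Immature Neurons, whose Omp runs from 0 to 6224 FPKM with a median of 49.4, the coefficient was -0.57 for Stmn1 and -0.54 for Marcks, and between -0.30 and 0.28 for the other 6 genes, among them -0.07 for Gap43. Among the 19 of these cells named D316 to D434, the coefficient was -0.35 for Stmn1, -0.36 for Marcks and 0.05 for Gap43.

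Gap43 and Omp were found together in single cells. Both reached 100 FPKM in 10 of 27 Early Immature Neurons (37.0%, interval 19.4 to 57.6%), namely D168, D192, D200, D202, D317, D347, D378, D394, D401 and D425, in the Late Immature Neuron D199 (198.8 FPKM of Gap43 and 3428 of Omp) and in 0 of 25 Mature Neurons. The cell D425 held 374.5 FPKM of Gap43 beside 6224 of Omp, and D168 held 970 beside 3567, levels of Omp within the range of Mature Neurons, 1090 to 35132. At the other end, D417 and D331 had 2155 and 1941 FPKM of Gap43 with Omp at 0. High Gap43 therefore occurred over the whole span of Omp in Early Immature Neurons.

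**Figure D2:**
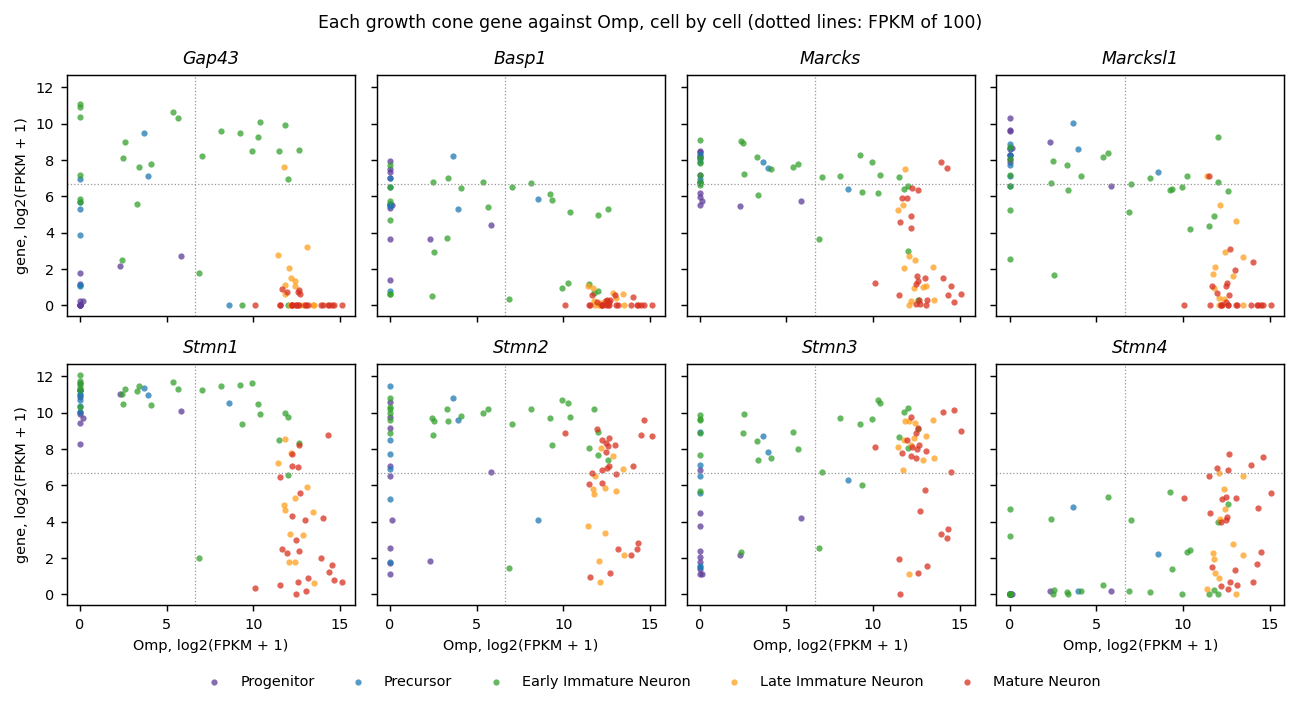
Each gene against Omp in the 85 cells, both as log2(FPKM + 1), coloured by stage, with dotted lines at an FPKM of 100. Gap43 and Omp are both past 100 in 10 Early Immature Neurons and 1 Late Immature Neuron, and Stmn4 is above 100 only where Omp is.

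The other genes paired with Omp in their own ways. Omp and the gene both reached 100 FPKM in 6 of 27 Early Immature Neurons for Marcks, 5 for Marcksl1, 1 for Basp1 (D401), 11 for Stmn1, 12 for Stmn2, 11 for Stmn3 and 0 for Stmn4. In Mature Neurons, all of which had at least 1090 FPKM of Omp, the counts were 16 of 25 for Stmn2 and for Stmn3, 5 each for Stmn1 and Stmn4, 2 for Marcks, 1 for Marcksl1 and 0 for Basp1 and Gap43. The number of members at 10 FPKM or more in a cell had medians of 5, 7, 7, 3 and 3 from Progenitor to Mature Neuron. All members but Stmn4 reached 10 FPKM together in 14 of 27 Early Immature Neurons and 5 of 9 Precursor cells, and in no cell of the other stages.

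**Figure D3:**
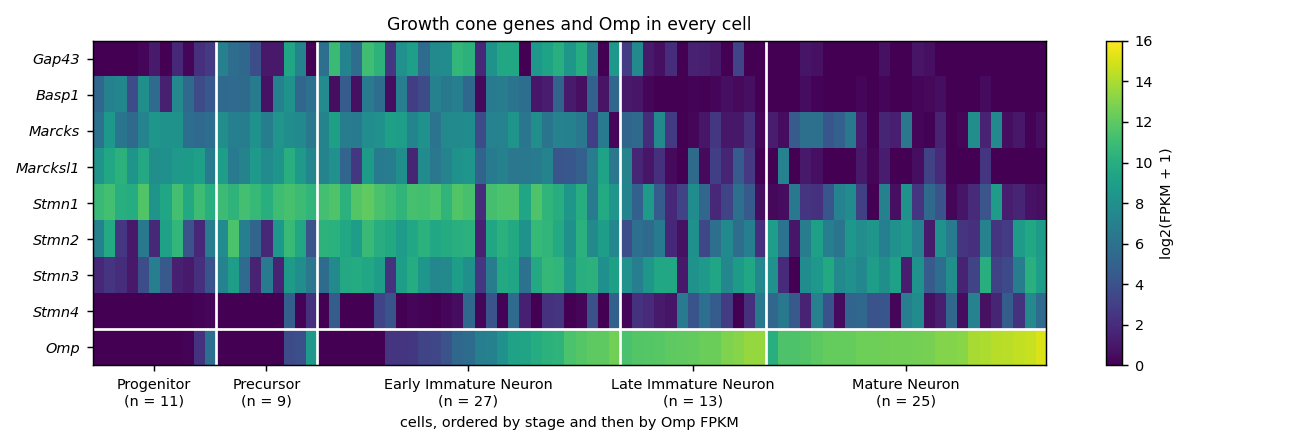
Every cell as a column, ordered by stage and then by Omp, with the 8 genes and Omp as rows and colour as log2(FPKM + 1). Within Early Immature Neurons Gap43 is high on the Omp-poor and the Omp-rich side, and at the border with Late Immature Neurons 6 of the 8 rows drop.

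The stathmins changed places. FPKM divides by transcript length, so their shares of the family's summed FPKM are set side by side on the assumption of even coverage, which was not analysed. The median share of Stmn1 over cells, from Progenitor to Mature Neuron, was 93.2%, 85.3%, 60.3%, 7.87% and 1.57%. That of Stmn3 was 0.163%, 5.79%, 14.7%, 65.7% and 35.1% in the same order, and that of Stmn2 2.74%, 8.90%, 25.6%, 7.45% and 33.02%. Stmn4 had 0, 0, 0.00617%, 1.57% and 4.76%.

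Stmn1 led the family in 11 of 11 Progenitor cells, 8 of 9 Precursor cells and 20 of 27 Early Immature Neurons, in 1 of 13 Late Immature and 3 of 25 Mature Neurons. Stmn3 led 6 Early Immature, 10 Late Immature and 11 Mature Neurons, Stmn2 led 1, 1 and 8 of these, and Stmn4 led 0, 1 and 3. The family's summed FPKM had medians of 1298, 2477, 3750, 539 and 521 from Progenitor to Mature Neuron. The stathmin without N-terminal cysteine codons in the sequences above thus held most of the sum before, and those with them after, the step from Early to Late Immature Neurons.

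**Figure D4:**
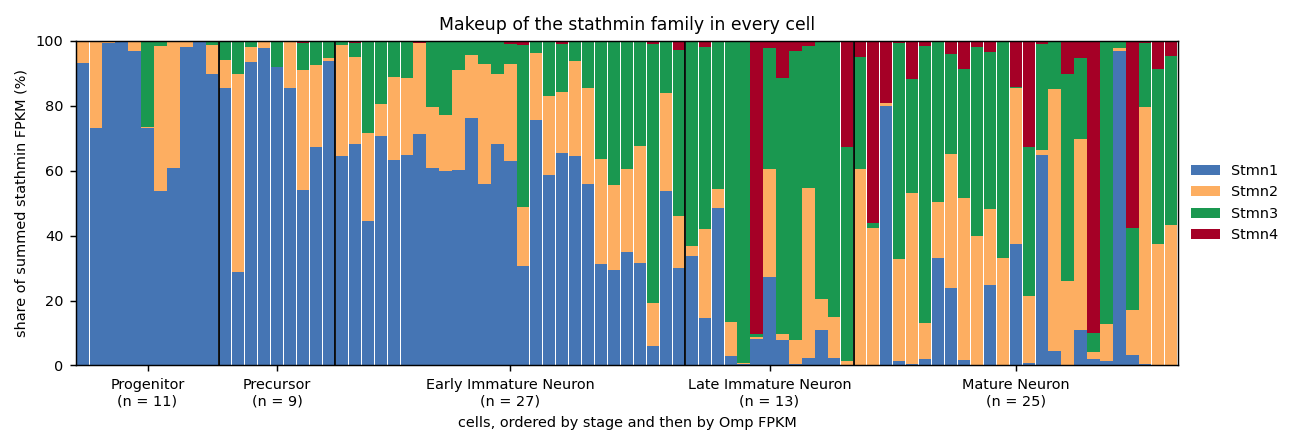
Share of each stathmin in the summed FPKM of the 4 genes, 1 bar a cell, ordered by stage and then by Omp. Stmn1 fills most of the bars up to the Omp-poor Early Immature Neurons, Stmn3 leads 10 of 13 Late Immature Neurons, and Mature Neurons differ from cell to cell, with Stmn4 leading 3 and Stmn1 leading 3 of 25.

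Some Mature Neurons kept Stmn1 and Marcks. Both genes were at 10 FPKM or more in 6 of 25 cells, D95, D213, D223, D251, D261 and D262. Marcks alone was in 3 (D265, D329 and D433), Stmn1 alone in 4 (D240, D243, D245 and D342), and neither in 12. In D95 Stmn1 was 444 and Marcks 189.1 FPKM, in D213 300 and 81.8, and in D262 211 and 88.5. Spearman's coefficient between the pair was 0.67 over the 25 Mature Neurons and 0.57 over the 27 Early Immature Neurons. In the first libraries Basp1 and Marcksl1 were at 0 in all 6 cells. The grouping was not stable on repeat: the repeat of D251 had 0.721 FPKM of Marcks and 14.3 of Marcksl1, and the repeat of D243 had 16.6 of Marcks beside 588 of Stmn1. The sustentacular genes Cbr2 or Cyp2g1 reached 100 FPKM in 2 of these 6 cells and in 15 of 25 Mature Neurons, and their part in this pattern was not tested.

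The 8 repeat libraries give the scatter of one cell measured again. The FPKM of Gap43 was 199.3 in the repeat and 0.671 in the first library of the Mature Neuron D243, 269 against 0 in the Late Immature Neuron D250, and 146 against 0 in the Early Immature Neuron D244. It was also higher in the repeat of the other 3 cells named D213 to D274 (11.1 against 0.561 in D230, 4.35 against 0 in D233, 2.34 against 0 in D251). With repeats in place of the first libraries, Gap43 and Omp were both at 100 FPKM in 1 of 25 Mature and 2 of 13 Late Immature Neurons. For these cells a Gap43 value at or near 0 in the first library was not repeated. Genes under 1 FPKM in the first library and at 100 or more in the repeat numbered at least 42 in each of these 6. Genes that went the other way, from 100 or more to under 1, numbered at least 44 in each. In at least 1 of the 6 cells, 1319 genes went from under 1 to 100 or more. Of these, 5 did so in 3 or more cells, Gap43 among them.

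The other members scattered as well. The median absolute difference between repeat and first library, in log2(FPKM + 1), was 2.80 for Gap43, 2.26 for Stmn2, 1.495 for Stmn1, 1.47 for Marcks, 1.46 for Marcksl1, 1.36 for Basp1, 1.33 for Stmn3 and 0.27 for Stmn4, and 0.59 for Omp. Stmn1 was 716 in the repeat and 24.0 in the first library of D230, and 588 against 129 in D243. Marcksl1 was 445 against 3.399 FPKM in D230. In D230 the 2 libraries of 1 cell thus differed in Marcksl1 by 6.66, where the Late and Early Immature stages differed by -4.11.

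**Figure D5:**
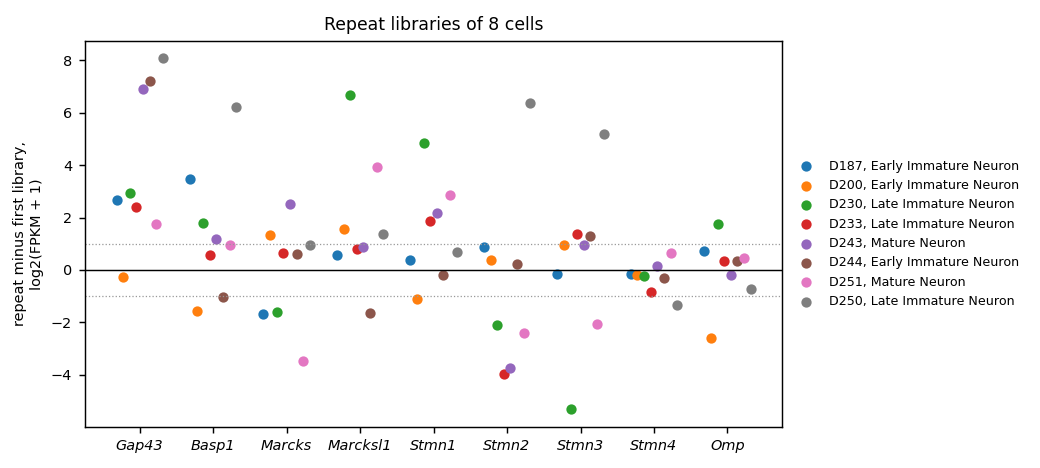
Difference of the repeat minus the first library in log2(FPKM + 1), 1 point a cell (n = 8), for each gene and Omp, with dotted lines at 1 unit. Gap43 is higher in the repeat in 7 of 8 cells, up to 8.07, and Stmn4 differs by more than 1 in 1 cell.

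Of 30 other growth cone and axon outgrowth genes, 14 of 22 measured were higher and 0 lower in Precursor than in Progenitor cells, against 20.1% and 21.6% of all genes. In Late against Early Immature Neurons 15 of 24 were lower and 1 higher, against 16.1% and 32.6% of all genes (median -1.31, against 0.41), and in Mature against Early Immature Neurons 16 of 24 were lower and 0 higher, against 30.6% and 20.5% (median -2.72, against -0.31). Tubb2b, a beta tubulin of young neurons, had median FPKM of 9.16, 156, 183, 4.40 and 0 from Progenitor to Mature Neuron, and Dpysl3, a collapsin response mediator, 21.2, 72.8, 129, 1.04 and 0. Dcx, the microtubule-binding doublecortin, had 0.0754, 0.202, 61.3, 17.0 and 11.2, and Mapt, tau, 0, 0.117, 20.9, 0 and 0.105. Tubb3, the neuronal beta tubulin, had 296, 962, 464, 321 and 113. Tubb2b, Dpysl3 and Mapt thus had medians under 5 FPKM in Late Immature Neurons, and Dcx and Tubb3 higher ones.

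Of 30 genes for kinases, phosphatases, acyl transferases, actins and other partners linked to these proteins, the counts were mixed. Between Precursor and Progenitor cells 6 of 18 measured were higher and 3 lower (20.1% and 21.6% of all genes), and between Early Immature Neuron and Precursor cells 6 of 18 were higher and 0 lower (22% and 28.1%). Between Late and Early Immature Neurons 5 of 17 were higher and 3 lower, near the 32.6% and 16.1% of all genes. Between Mature and Late Immature Neurons 0 of 17 were higher and 3 lower (4.57% and 32.7%), and between Mature and Early Immature Neurons 2 of 16 were higher and 5 lower (20.5% and 30.6%). Mapk10, a Jun kinase that phosphorylates neuronal stathmins, had 0.0614, 0.314, 30.7, 32.2 and 58.3. Cdk1 and Aurkb, mitotic kinases that phosphorylate the Stmn1 protein, had medians of 90.4 and 70.9 in Progenitor and of 0.564 and 0.0855 in Precursor cells, whose means on the log2 scale were 3.33 and 2.29. Against Progenitor cells, Mature Neurons were higher in 7 of 16 and lower in 6, and for the growth cone list higher in 5 of 21 and lower in 11, against 25.2% higher and 46.3% lower among all genes.

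The genes most like each member, by Spearman's coefficient over 85 cells among 5882 annotated genes detected in at least 20 cells, were often other members. Basp1 was closest to Marcksl1 (0.84), Dpysl3 (0.82) and Stmn1 (0.80), and Marcksl1 to Basp1, Gnb2 (0.81) and Hn1 (0.80). Stmn1 was closest to Dpysl3 (0.86), Tubb5 (0.83) and Tubb2b (0.80), and Marcks to Stmn1 (0.77), Tubb5 (0.74) and Fabp5 (0.73). Gap43 was closest to Vim (0.74), Tubb2b (0.72) and Agrn (0.71), and Stmn2 to Tubb2b (0.64), Qdpr (0.56) and Dpysl3 (0.56). Stmn3 had no gene above 0.52 (Gnao1, then Ap3b2 and Mlf1), and Stmn4 was close to Ephx4 (0.71) and Gnal (0.70), the G protein subunit gene of odorant transduction. The cells share stage and depth in these values.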

How the data were processed

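Single cell cDNA had been primed with oligo(dT) and amplified by PCR, per the labels' protocols. Per the submitters' processing notes, the authors' tools were Cufflinks 2.2.1 and TopHat2 2.0.14 on the mm10 build, besides cutadapt 1.2.1, CASAVA 1.8.2 and Trim Galore. Their options are not stated in the labels. The authors deposited FPKM for 32975 entries in 93 libraries and gene positions on mm10 (other values). FPKM divides by transcript length, which assumes even coverage, and how coverage ran was not analysed here.

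Entries were named from the deposited annotation (32868 of 32975), and the entry of highest summed FPKM was kept for 172 symbols with several. No 2 libraries were identical. Stages were compared as differences of mean log2(FPKM + 1) over cells, later minus earlier, for all genes, with Python 3.11.15, numpy 2.4.6, pandas 2.3.3 and scipy 1.17.1; a member counted as higher or lower past 1 log2 unit. Depth was recovered from low FPKM of 2282 genes of 800 to 4000 bp, whose values fall on multiples of 1 fragment (tolerance 5%, a median of 37.7% of values on the steps against 10% by chance). Coding sequences and 50-base words came from GENCODE vM21 and were aligned with Biopython 1.88. Members and lists were chosen with earlier results of these data known. Named genes were the 8 members, Omp, up to 4 genes a list and pair by absolute difference, and the 3 genes most like each member, of which some that the rule names are not reported here; the cells named in the text were chosen after their values were seen. The lists not described were stage and cell type markers, of which the stromal, microvillous and horizontal basal ones had at most 1 measured gene in a pair. Alternatives were the pseudocount, filter, scaling, median, subsets of cells and repeat libraries. PCR copies are not independent molecules.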

Additional observations from a re-analysis of the deposited data

Results flagged for a closer look

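In the 9 Precursor cells, the one group small enough for the check of gaps (4 to 10 values), 5 of 9 sets of values had a cell whose gap to its neighbour, over the whole range, passed Dixon's 95% critical value. The check was run on FPKM and not on the log2 scale, and Omp and Stmn4 were each at 0 in 6 of these cells. Its nominal rate of 1 group in 20 by chance therefore need not hold here. Gaps on the log2 scale were not checked. Of the 5 sets, 4 point to the same cell. D178 had 706 FPKM of Gap43, where the next Precursor cell had 139, 299 of Basp1 (next 129), 1063 of Marcksl1 (next 478) and 27.6 of Stmn4 (next 3.74). D178 also had the highest Stmn1 of the stage, 2607 FPKM. D242 had 378.5 FPKM of Omp, where the next had 14.2. Without D178 the difference of Early Immature Neuron minus Precursor cells was 3.65 for Gap43 and 1.32 for Stmn4, against 3.03 and 0.82 with it.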

How the results depend on the processing

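Of 48 differences between stages, 39 to 48 stayed within 1 SD of the reported value under each alternative with all pairs. That SD is the wide spread between cells, so these counts are a weak check. The Stmn2 difference of Precursor minus Progenitor cells, 1.78, was 0.39 within D316 to D434 and still within its SD of 3.35. Among the alternatives, 3 differences past 1 unit changed sign. Within D213 to D274, a subset chosen after seeing the data, Gap43 was at 0.16 for Late minus Early Immature and 0.046 for Mature minus Early Immature Neurons. Without cells high in Cbr2 or Cyp2g1, Stmn1 was at 0.16 for Mature minus Late Immature Neurons. For Mature minus Late Immature Neurons, the count of members higher was 2 with a pseudocount of 0.1, with medians, within D316 to D434, without cells high in Cbr2 or Cyp2g1 and with repeat libraries, and 0 after rescaling to one sum of other genes; the count lower was 1 with a pseudocount of 10, 2 without cells high in Cbr2 or Cyp2g1 and 0 within D213 to D274. For Early Immature Neuron minus Precursor cells the count lower was 1 with a pseudocount of 10, with medians and within D316 to D434, and for Late minus Early Immature Neurons the count higher was 0 with a pseudocount of 10. The causes were not tested. Rescaling moved the median of all genes by -0.41, -0.36 and -0.39 in the 3 pairs of Mature minus Late Immature Neuron, Progenitor and Early Immature Neuron cells and by less than 0.1 in the others. Leaving out each cell in turn ended the 1 unit call of Gap43 (-0.99 without D199) and Stmn1 (-0.95 without D344) in Mature minus Late Immature Neurons. Stmn4 in Mature minus Late Immature Neurons (0.99) lay between 0.74 and 1.30 over these, and Stmn2 in Mature Neurons minus Progenitor cells (0.85) between 0.41 and 1.35. Without the library D357, chosen after seeing the data, all 48 differences stayed within 1 SD. Leaving out 1 of 27 cells moves a mean little against the SD between cells, so this count does not show that D357 is without effect. The Stmn1 difference of Early Immature Neuron minus Precursor cells was -0.18 without D357 and -0.50 with it. Depth limits values under about 1 FPKM. No paired analysis was possible because the labels pair no cells across stages.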
